A study of Mus musculus with 3 samples.

Results

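Enteroendocrine cells that carry transcripts of *Cck*, *Gip*, *Ghrl* and *Sst* were examined in 3 single-cell libraries of EpCAM-sorted mouse small intestinal epithelium. Barcodes were kept with 400 or more detected genes and at most 20% mitochondrial UMIs, a UMI (unique molecular identifier) being the tag that marks 1 captured RNA molecule. Of the kept barcodes, barcodes with 5 or more summed UMIs of *Chga* and *Chgb*, the chromogranin genes of endocrine granules, were sorted by the sums of 3 gene sets, *Tph1* with *Tac1*, *Cck* with *Gip*, *Ghrl* and *Sst*, and *Gcg* with *Pyy* and *Nts*. A barcode was a member when the *Cck*, *Gip*, *Ghrl* and *Sst* sum was the highest and at least 2, and ties were left out. The rule gave 653 members of 39235 kept barcodes, 229 of 11391 in WT, 265 of 10869 in *LApc* and 159 of 16975 in *LApcL*. The labels give WT only as wild type and say nothing of a Cre allele in it. The *LApc* mouse was *Lgr5-CreERT2*; *Apc* fl/fl, and the *LApcL* mouse carried *Lef1* fl/fl in addition. In these mice the tamoxifen-inducible Cre is expressed from the *Lgr5* locus of intestinal stem cells, so deletion is limited to those cells and their descendants, and unrecombined cells stay in the same tissue. Per the labels and the methods, C57BL/6 mice of 7 to 8 weeks received 2 doses of 2 mg tamoxifen, the WT and *LApcL* libraries date from day 21 after tamoxifen, and the *LApc* library dates from day 29. Each library came from 1 mouse, so genotype, mouse and library cannot be told apart, and day cannot be told apart from genotype for *LApc*.

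The members held 2761217 UMIs in WT, 1405279 in *LApc* and 1309871 in *LApcL*, with medians of 9588, 4552 and 6293 UMIs and 2718, 1592 and 2041 genes per barcode. The label of the members was checked with 12 endocrine genes outside the rule, among them *Neurod1*, *Cpe*, *Rfx6* and *Insm1*. Their summed level was 1647, 3476 and 2299 CPM in the WT, *LApc* and *LApcL* members, against 22.6, 17.0 and 14.7 CPM in enterocyte barcodes. CPM are UMIs of a gene scaled to the UMI total of its class. Enterocyte barcodes had under 5 *Chga* and *Chgb* UMIs and 1% or more of their UMIs from *Fabp1*, *Apoa1*, *Apoa4*, *Rbp2* and *Alpi*. They were not chosen to lack transcripts of other cells. Members with low sums carried less of the 12 endocrine genes. Here their level was scaled to the UMIs of each barcode and given as the median over barcodes, unlike the class levels above. It was 174, 765 and 1169 CPM in the 39, 32 and 33 members with a set sum under 10 UMIs. In members with a sum of 100 or more it was 2693, 4780.3 and 3440.2 CPM. Transcripts of other epithelial cells were present as well. In WT, *LApc* and *LApcL*, 8 Paneth cell markers summed to 62024, 3059.9 and 3692 CPM in members and to 65266, 13993 and 9797 CPM in barcodes outside the endocrine gate, 8 goblet cell markers to 21471, 17951 and 3014 CPM and 48280.2, 42612 and 8988 CPM, and 8 enterocyte markers to 6063, 9069 and 3868 CPM in members. Of 10 immune and stromal markers, 7, 6 and 6 were at 0 in members. In 14 WT members, and in 1 member of each other library, 5% or more of the UMIs came from Paneth cell genes, namely those with names starting in *Defa* and the lysozyme gene *Lyz1*. These barcodes are called defensin-rich here, although defensin family genes with other names were not counted. They were 6.11%, 0.377% and 0.629% of the members of WT, *LApc* and *LApcL*. Outside the gate 6.88%, 2.27% and 1.82% of the barcodes passed the same limit, so the share in WT members was near that of their library. The 14 defensin-rich WT members held 17.1% of the WT members' UMIs and a median set sum of 7, against 504 in the other WT members. The libraries shared 214 to 318 cell barcodes pairwise, and no barcode was shared between members.

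Enteroendocrine cells are the hormone-secreting cells of the gut epithelium, and they arise from crypt stem cells through a Neurog3-positive progenitor. *Cck* encodes cholecystokinin, released after fat and protein meals to drive gallbladder contraction and satiety; *Gip* encodes the incretin of K cells; *Ghrl* encodes ghrelin, the hunger hormone of X cells; and *Sst* encodes somatostatin, with which D cells inhibit their neighbours. The sets compared here mark enterochromaffin cells, which make serotonin through *Tph1* and substance P from *Tac1*, and cells with proglucagon (*Gcg*), peptide YY (*Pyy*) and neurotensin (*Nts*) transcripts.

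The proximal promoters of the 4 hormone genes are shown because these genes define the members and lead different ones of them. The windows are the 250 bases before the annotated start in RefSeq on GRCm38.p6, the assembly of mm10, written 5′ to 3′ on the strand of the gene. *Cck* (ENSMUSG00000032532) lies at chr9:121489824-121495694 on the minus strand and its window at chr9:121495695-121495944. *Gip* (ENSMUSG00000014351) lies at chr11:96024545-96030831 on the plus strand and its window at chr11:96024295-96024544. *Ghrl* (ENSMUSG00000064177) lies at chr6:113716119-113719880 on the minus strand, and of 4 RefSeq starts the one closest to the gene's start was used, with the window at chr6:113719912-113720161. *Sst* (ENSMUSG00000004366) lies at chr16:23889573-23890958 on the minus strand and its window at chr16:23890845-23891094, which overlaps the gene model because RefSeq places the start further downstream. Capitals mark matches on either strand to 4 motifs. The cAMP response element was searched as TGACGTCA. The first E-box form, a motif of basic helix-loop-helix factors, was searched as CACGTG. The other E-box form was searched as CAGATG. The GATA factor motif was searched as AGATAA.
Cck: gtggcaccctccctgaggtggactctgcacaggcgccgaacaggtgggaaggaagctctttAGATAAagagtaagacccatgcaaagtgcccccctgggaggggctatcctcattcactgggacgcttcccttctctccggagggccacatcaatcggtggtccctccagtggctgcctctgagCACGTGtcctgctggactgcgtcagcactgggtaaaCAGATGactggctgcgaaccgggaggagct
Gip: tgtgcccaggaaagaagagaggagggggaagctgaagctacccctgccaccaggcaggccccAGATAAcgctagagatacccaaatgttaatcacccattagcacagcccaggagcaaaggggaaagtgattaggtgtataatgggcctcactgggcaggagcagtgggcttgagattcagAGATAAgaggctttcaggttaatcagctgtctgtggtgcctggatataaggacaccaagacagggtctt
Ghrl: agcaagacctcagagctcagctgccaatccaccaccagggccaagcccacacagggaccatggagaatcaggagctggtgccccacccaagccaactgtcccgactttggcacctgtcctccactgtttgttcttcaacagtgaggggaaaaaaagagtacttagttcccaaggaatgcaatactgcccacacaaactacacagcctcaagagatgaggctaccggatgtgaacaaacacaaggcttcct
Sst: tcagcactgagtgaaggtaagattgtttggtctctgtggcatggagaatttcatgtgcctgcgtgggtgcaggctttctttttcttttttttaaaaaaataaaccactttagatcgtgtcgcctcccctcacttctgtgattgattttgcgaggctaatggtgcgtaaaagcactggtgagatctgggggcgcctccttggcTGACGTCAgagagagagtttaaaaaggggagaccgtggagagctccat

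The *Sst* window held TGACGTCA at 48 to 41 bases before the start, a motif found in 1.55% of 32851 windows of the same length. In the *Cck* window CACGTG lay at 66 to 61 bases (6.02% of windows), CAGATG at 30 to 25 bases (14.4%) and AGATAA at 189 to 184 bases. The *Gip* window held AGATAA at 188 to 183 and 69 to 64 bases (9.99% of windows), and the *Ghrl* window held none of the 4. These matches describe the letters of the windows only.

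Each member was assigned to the hormone with the most UMIs. These 4 genes chose the members, so their values are a description. Intervals here and below are exact 95% intervals, which cover counting error only and not the spread between mice. *Gip* led 96 members in WT (41.9%, 35.5 to 48.6), 118 members in *LApc* (44.5%, 38.4 to 50.7) and 68 members in *LApcL* (42.8%, 35.0 to 50.8). *Cck* led 70 members in WT (30.6%, 24.7 to 37.0), 99 members in *LApc* (37.4%, 31.5 to 43.5) and 44 members in *LApcL* (27.7%, 20.9 to 35.3). Both hormones thus led more members than *Sst* or *Ghrl* in every library. *Sst* led 30 members in WT (13.1%, 9.02 to 18.2), 21 members in *LApc* (7.92%, 4.97 to 11.9) and 17 members in *LApcL* (10.7%, 6.35 to 16.6). *Ghrl* led 26 members in WT (11.4%, 7.55 to 16.2), 20 members in *LApc* (7.55%, 4.67 to 11.4) and 18 members in *LApcL* (11.3%, 6.85 to 17.3). In 7, 7 and 12 members the lead was tied. The intervals of WT and *LApcL* overlapped for all 4 hormones, as did those of WT and *LApc*.

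**Figure D1:**
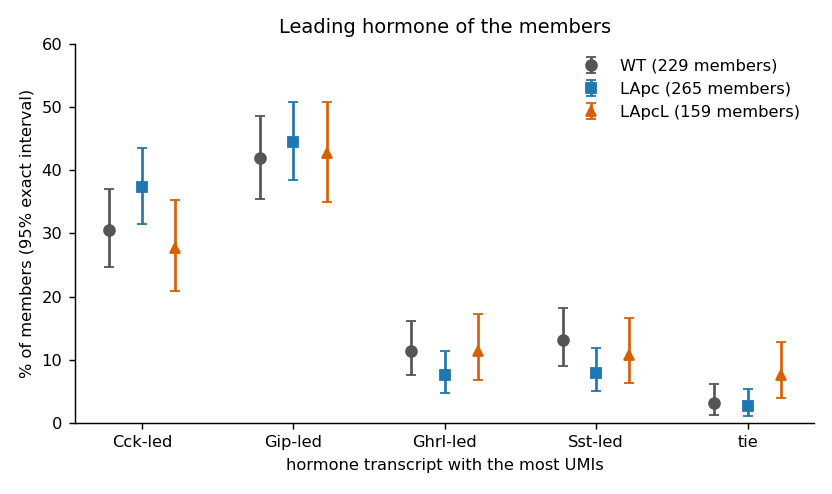
Share of members, in percent, led by each hormone transcript in WT (229 members), *LApc* (265) and *LApcL* (159), with exact 95% intervals of the counting error as bars. *Gip* and *Cck* led most members of each library, and the intervals of the libraries overlap for each hormone.

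The hormone transcripts made up a large part of the RNA of single cells. The *Cck*, *Gip*, *Ghrl* and *Sst* sum had medians of 393, 685 and 347 UMIs per member in WT, *LApc* and *LApcL*, a minimum of 2 and maxima of 4905, 5620 and 3469. It was 4.08%, 15.9% and 4.92% of a member's UMIs at the median and 54.4%, 68.6% and 58.0% at most. At the edge of the rule, 19, 15 and 21 members had a sum of 2 or 3, and 1, 3 and 13 barcodes just outside had a sum of 1. On the *Chga* and *Chgb* side, 20, 22 and 12 members had exactly 5 UMIs, and 24, 21 and 14 barcodes just outside had 4. In *Gip*-led members *Gip* stood at 96145 CPM in WT, 213363 in *LApc* and 130753 in *LApcL*, with medians of 880.0, 1227 and 779 UMIs per cell. *Sst* in *Sst*-led members stood at 104227 CPM in WT, 224079.6 in *LApc* and 97218 in *LApcL*, with medians of 857, 964 and 752 UMIs. *Cck* in *Cck*-led members stood at 33923 CPM in WT, 85329 in *LApc* and 32049.6 in *LApcL*, with medians of 256, 378 and 258 UMIs. Of the 4 groups, *Ghrl*-led members had the widest range of their own hormone, with *Ghrl* at 85469 CPM in WT, 155572 in *LApc* and 25366 in *LApcL* and medians of 99.0, 328 and 15.0 UMIs. In enterocyte barcodes, which should lack the hormones, *Cck* stood at 72.1, 63.0 and 19.4 CPM, *Gip* at 132, 193 and 79.0 CPM, *Ghrl* at 55.6, 23.2 and 5.68 CPM and *Sst* at 107, 12.0 and 8.03 CPM.

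Many members also held a hormone transcript other than their leading one, and which one depended on the group. Shares were counted as cells with 5 or more UMIs of a gene after each cell had been thinned to 3000 UMIs, which left 70, 79 and 43 *Cck*-led, 96, 99 and 65 *Gip*-led, 26, 17 and 17 *Ghrl*-led and 30, 18 and 16 *Sst*-led members of WT, *LApc* and *LApcL*. *Ghrl* reached this level in 60, 83.3 and 62.5% of *Sst*-led members and in 31.4, 45.6 and 34.9% of *Cck*-led members, but in 0, 1.01 and 0% of *Gip*-led members. Without thinning these shares of *Ghrl* were 70.0, 95.2 and 70.6%, 42.9, 50.5 and 43.2% and 1.04, 0.847 and 1.47%. *Cck* reached it in 30.2, 42.4 and 43.1% of *Gip*-led members and in 3.85, 23.5 and 11.8% of *Ghrl*-led ones. In the opposite direction, *Gip* reached it in 5.71, 6.33 and 4.65% of *Cck*-led members and in 23.3, 50 and 12.5% of *Sst*-led ones. *Sst* stayed at or below 1.5% in the *Cck*-, *Gip*- and *Ghrl*-led members of each library. Droplets can also hold free RNA. In enterocyte barcodes, with median depths of 9433, 5483 and 7854 UMIs against 9588, 4552 and 6293 in members, each of the 4 hormones reached 5 UMIs in at most 0.6% of cells after thinning. The low shares of *Ghrl* in *Gip*-led members and of *Sst* outside its own group are near this background. In the *LApcL* library 41.2% of *Ghrl*-led members reached 5 UMIs of *Ghrl* itself.

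Peptides outside the 4 genes were spread unevenly over these groups. *Gcg* reached 5 UMIs in 30.0, 24.1 and 23.3% of *Cck*-led members and in no more than 5.9% of each other group. *Pyy* did so in 10.4, 19.2 and 20% of *Gip*-led, 5.71, 13.9 and 23.3% of *Cck*-led and 13.3, 27.8 and 18.8% of *Sst*-led members. *Gcg* and *Pyy* belong to the *Gcg*, *Pyy* and *Nts* set, whose sum had to stay below the hormone sum in a member. The rule thus limits both shares, which describe the members it chose. *Sct*, which encodes secretin, the hormone of pancreatic bicarbonate release, was found in 70.0, 88.6 and 69.8% of *Cck*-led, 58.3, 62.6 and 67.7% of *Gip*-led, 33.3, 66.7 and 25% of *Sst*-led and 30.8, 52.9 and 17.6% of *Ghrl*-led members. *Iapp*, which encodes amylin, was found in 70.0, 88.9 and 68.8% of *Sst*-led members and in at most 1.5% of each other group. Enterocyte barcodes reached 5 UMIs of *Sct* in 0.945, 1.04 and 0.758% of cells and of *Iapp* in 0.0590, 0 and 0%.

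**Figure D2:**
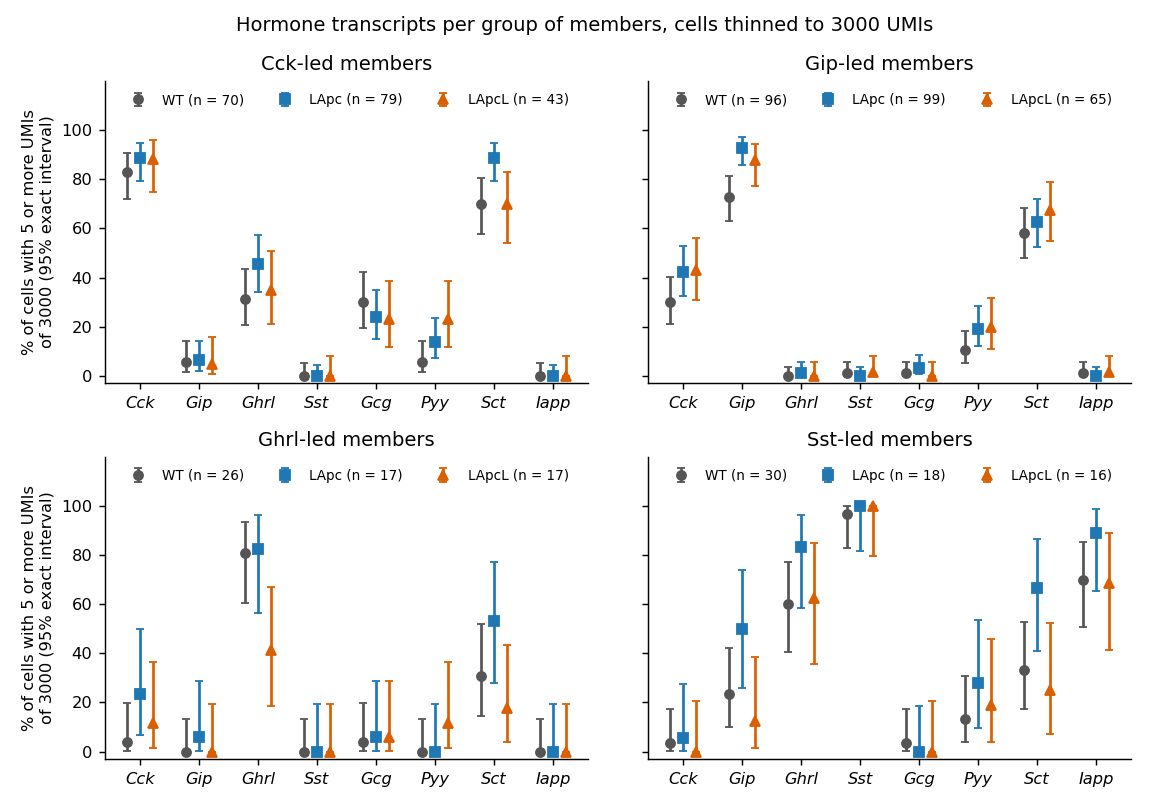
Percent of cells with 5 or more UMIs of each transcript (x axis) in *Cck*-, *Gip*-, *Ghrl*- and *Sst*-led members after thinning to 3000 UMIs, with exact 95% intervals; n is the number of cells thinned. *Ghrl* was frequent in *Sst*-led and *Cck*-led members and at most 1.01% in *Gip*-led members, *Gcg* was found mainly in *Cck*-led members, and *Iapp* in *Sst*-led members. *Gcg* and *Pyy* are genes of the rule, which limits their shares.

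To find what sets the members apart from enterochromaffin-type cells, members were compared with the 167, 307 and 224 barcodes of WT, *LApc* and *LApcL* led by *Tph1* and *Tac1* (*Tph1* and *Tac1* cells). UMIs were summed per class and library and tested within libraries with edgeR's quasi-likelihood test, with the library as block and Benjamini-Hochberg adjustment over all genes tested; the 11 genes of the rule were left out of the calls. Each library stood for a different genotype, so the p-values measure how alike the class difference was in these 3 mice. Members had higher levels of 354 genes (3.55% of 9963 tested) and lower levels of 292 (2.93%), and the median log2 difference of all genes was 0.01. Without WT, without *LApc* and without *LApcL*, 217, 215 and 261 genes were called higher and 273, 146 and 221 lower, and DESeq2 called 188 higher and 141 lower.

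Transcription factors of the endocrine lineage separated the classes. Of 30 listed, 26 passed the filter on low counts, 11 were higher in members, 3 were lower, and the median log2 difference was 0.22. *Isl1*, a LIM homeodomain factor, stood at 171 CPM in WT, 299.6 in *LApc* and 196 in *LApcL* in members and at 3.64, 1.57 and 2.64 CPM in *Tph1* and *Tac1* cells (log2 difference 6.41 ± 0.21 (SE), adjusted p = 1.54e-19). For *Etv1*, an ETS factor, the levels were 49.3, 112 and 82.5 CPM against 2.08, 0 and 0.529 CPM (log2 difference 6.34 ± 0.34 (SE), adjusted p = 1.02e-13). Every member sum of both genes lay above every sum of the other class. *Pax6* (2.38), *Rfx6* (1.26), *Hhex* (4.19), *Prox1* (0.99), *St18* (0.91), *Tox3* (0.70), *Mlxipl* (0.51) and *Insm1* (0.42) were also higher, the values being log2 differences. *Lmx1a*, a LIM homeodomain factor of enterochromaffin cells, showed the opposite pattern, with 5.07 CPM in WT, 12.1 in *LApc* and 4.58 in *LApcL* in members and 46.8, 154 and 59.2 CPM in *Tph1* and *Tac1* cells (log2 difference -3.30 ± 0.22 (SE), adjusted p = 7.47e-13). *Mnx1* (-2.17) and *Foxa1* (-1.61) were lower in members too. The calls of *Prox1*, *St18*, *Mlxipl*, *Hhex* and *Mnx1* were lost without *LApc*, those of *Tox3* and *Mlxipl* without *LApcL*, and that of *Insm1* without any 1 of the libraries. DESeq2 did not call *St18*, *Tox3*, *Mlxipl* or *Insm1*.

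Members held more transcript of the genes that pack and process peptide hormones. Of 12 listed, 11 passed the filter, 8 were higher and 2 lower, with a median log2 difference of 1.13. *Cpe*, the carboxypeptidase that trims prohormone fragments, stood at 587 CPM in WT, 1213 in *LApc* and 637 in *LApcL* against 159.6, 324 and 164 CPM (log2 difference 2.1 ± 0.10 (SE), adjusted p = 1.55e-14), without overlap. *Scg2*, which encodes secretogranin II, stood at 453, 1235 and 563 CPM against 2.6, 7.06 and 23.8 CPM (log2 difference 6.11 ± 0.64 (SE), adjusted p = 0.0124), and this call was lost without WT and without *LApc*. *Pam*, which amidates peptide ends (1.16), *Scg5* (1.13), *Scg3* (0.99), *Qpct* (3.27) and *Resp18* (0.44) were higher. *Mboat4*, the enzyme that acylates ghrelin, was found at 11.2, 22.1 and 8.40 CPM in members and at 0, 0 and 2.11 CPM in the other class (log2 difference 4.10). *Vgf* (-1.19) and the convertase gene *Pcsk1* (-0.52) were lower in members. Of 20 granule exocytosis genes, 18 passed, 2 were higher and 5 lower, with a median of -0.05. *Scgn*, a calcium sensor of secretory cells, was higher, at 160.1, 252 and 156 CPM against 5.20, 4.71 and 6.34 CPM (log2 difference 5.21 ± 0.18 (SE), adjusted p = 4.87e-20), as was *Cplx2* (0.71). *Rab3c* was lower, at 11.6, 22.1 and 19.1 CPM against 77.4, 184 and 139.5 CPM (log2 difference -2.70 ± 0.15 (SE), adjusted p = 1.55e-14), as were *Snap25* (-1.19), *Ptprn* (-1.05), *Rab3b* (-0.90) and *Syt7* (-0.81). The calls of *Resp18* and *Rab3b* were lost without WT and without *LApcL*, that of *Pcsk1* without *LApcL*, that of *Syt7* without *LApc*, and that of *Vgf* without any 1 of the libraries. *Resp18*, *Rab3b*, *Pcsk1* and *Vgf* were also not called by DESeq2.

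Receptors for nutrients and hormones differed in both directions. Of 32 listed, 18 passed the filter, 8 were higher in members and 4 lower, with a median log2 difference of 1.13. *Ffar1*, the receptor for long-chain fatty acids, stood at 40.6 CPM in WT, 96.8 in *LApc* and 42.0 in *LApcL* in members and at 0.520, 2.35 and 0 CPM in *Tph1* and *Tac1* cells (log2 difference 6.17 ± 0.35 (SE), adjusted p = 2.44e-14). *Gpr119*, a lipid amide receptor (5.58), *Cnr1*, the cannabinoid receptor (5.80), *Ffar4* (2.37), *Ffar3* (2.28), *Galr1* (1.64) and *Sstr5* (1.49) were higher as well. *Trpa1*, the irritant-sensing channel of enterochromaffin cells, stood at 11.6 CPM in WT, 14.9 in *LApc* and 4.58 in *LApcL* in members against 131, 329.5 and 79.8 CPM (log2 difference -3.76 ± 0.22 (SE), adjusted p = 1.64e-09). *Npy1r* (-3.76), *Sstr1* (-1.5) and *Ffar2* (-0.81) were lower. *Ffar1* and *Trpa1* did not overlap between the classes in any pair of sums. Of 17 ion channel genes of excitable cells, 8 passed, *Abcc8*, a subunit of the ATP-sensitive potassium channel (4.70), and the sodium channel subunit *Scn3b* (5.64) were higher, and *Scn3a* (-2.30) was lower. The calls of *Ffar3*, *Galr1* and *Sstr1* were lost without WT, without *LApc* and without *LApcL*, respectively, and *Npy1r* and *Scn3b* did not pass the filter without *LApc*. *Ffar3* and *Galr1* were not called by DESeq2 either.

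Among other gut peptides, 5 of 17 passed the filter, 2 were higher and 2 lower. *Sct* stood at 11755 CPM in WT, 18689.5 in *LApc* and 9904 in *LApcL* in members and at 2731, 7203 and 3267 CPM in *Tph1* and *Tac1* cells (log2 difference 1.87 ± 0.17 (SE), adjusted p = 0.00301). *Iapp* was higher (log2 difference 5.59 ± 0.40 (SE)), a call lost without *LApc*, and *Cartpt* (-4.72) and *Ucn3* (-2.79) were lower; the *Cartpt* call was lost without any 1 of the libraries. Of the named genes *Rbp4*, which encodes the plasma retinol carrier, had the highest log2 difference, at 583 CPM in WT, 1928 in *LApc* and 653 in *LApcL* in members and 3.12, 9.41 and 3.17 CPM in the other class (log2 difference 7.78 ± 0.54 (SE), adjusted p = 0.00297, lost without WT). *Fabp5*, a fatty acid binding protein gene, stood at 1354, 2129 and 1315 CPM against 35.9, 38.4 and 81.9 CPM (log2 difference 5.07 ± 0.60 (SE), adjusted p = 0.0174), a call lost without WT and without *LApc*. The other named genes higher in members were *Asic5* (4.86), *Rgs4* (4.20) and *Bambi* (3.63), and those lower were *Pla2g7* (-4.45), *Fabp3* (-4.23), *Tpbg* (-3.76), *Cwh43* (-3.39), *Rpp25* (-3.08), *Rasal2* (-2.83) and *Amigo2* (-2.76); *Asic5* and *Amigo2* lost their calls without *LApcL*. *Hbb-bs*, a haemoglobin gene of red blood cells, was lower in members, at 1.81, 2.85 and 3.05 CPM against 587, 107 and 21.1 CPM (log2 difference -6.72), a call lost without *LApc*. Of the marker lists of other cells, 0 of the enterocyte, goblet, tuft and crypt genes were called, while the Paneth gene *Mptx2* was higher (1.47; 798, 25.6 and 28.2 CPM against 339, 13.3 and 9.51) and *Wif1* and *C1qa* were lower (-1.68 and -2.52); without adjustment, 1598 of all 9963 genes had a p under 0.05. The *Wif1* call was lost without *LApc* and without *LApcL*, and *C1qa* did not pass the filter without WT or without *LApc*. None of *Mptx2*, *Wif1* and *C1qa* was called by DESeq2.

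**Figure D3:**
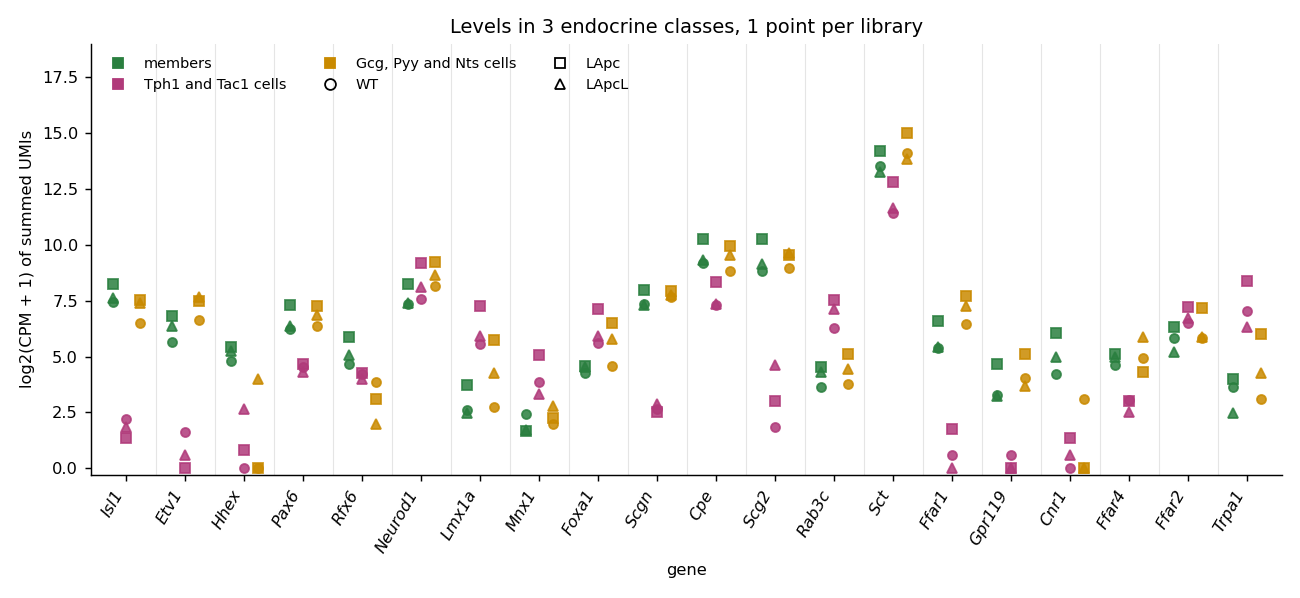
Levels of 20 transcription factor, granule, peptide and receptor genes as log2(CPM + 1) of UMIs summed per class, for members, *Tph1* and *Tac1* cells and *Gcg*, *Pyy* and *Nts* cells; circles are WT, squares *LApc* and triangles *LApcL*. *Isl1*, *Etv1* and *Ffar1* were lower in *Tph1* and *Tac1* cells than in both other classes, while *Lmx1a* and *Trpa1* were highest in *Tph1* and *Tac1* cells of each library.

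The members were next compared with the 95, 62 and 48 barcodes led by *Gcg*, *Pyy* or *Nts* in the same fit, in which 41 genes were higher (0.412% of 9963) and 114 were lower (1.14%). The UMI sums of that class were smaller than those of *Tph1* and *Tac1* cells, so the numbers of calls are not set against each other. Without WT, without *LApc* and without *LApcL*, 23, 28 and 30 genes were called higher and 56, 72 and 57 lower; DESeq2 called 7 higher and 59 lower.

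*Iapp* stood at 565 CPM in WT, 434 in *LApc* and 336 in *LApcL* in members and at 8.65, 11.3 and 39.0 CPM in *Gcg*, *Pyy* and *Nts* cells (log2 difference 4.97 ± 0.50 (SE), adjusted p = 0.0266), a call lost without *LApc* and without the highest doublet scores. *Rfx6* (1.75), *Isl1* (0.74) and *Cnr1* (2.6) were higher in members, as were *BC048546* (2.38), *Bambi* (1.85) and *Cd24a* (0.75). *Adgrd1*, an adhesion receptor gene, stood at 2.17 CPM in WT, 5.69 in *LApc* and 5.34 in *LApcL* in members and 58.6, 117 and 111 CPM in the other class (log2 difference -4.43 ± 0.32 (SE), adjusted p = 7.09e-11), without overlap. *Ffar1* was lower than in this class, at 40.6, 96.8 and 42.0 CPM against 87.5, 208 and 153 CPM (log2 difference -1.23 ± 0.17 (SE), adjusted p = 4.68e-05); within each library the members had the lower value. The bile acid receptor *Gpbar1* (-2.59), *Etv1* (-0.92), *Neurod1* (-0.94), *Vgf* (-2.02), *Qpct* (-1.57), *Syt7* (-1.39), *Scn3a* (-0.94) and the peptide transporter *Slc15a1* (-0.88) were lower, as was the pancreatic polypeptide gene *Ppy* (-4.78). Other named genes lower in members were *Serpina1e* (-2.86), *Nt5e* (-1.87), *Naaladl1* (-1.85), *1500009L16Rik* (-1.38), *Vim* (-1.37), *Ret* (-1.25) and *Bcam* (-1.22). The calls of *Nr4a2* (1.09), *Oxr1* (1.07), *Cdkn1c* (1.02), *Serpina1b* (0.94), *Rgs4* (0.93), *Cd177* (0.92) and *Hmgn3* (0.81), all higher in members, were lost under DESeq2 and without WT, and that of *Ret* without *LApc* and without *LApcL*. *Gm15315*, a defensin family gene, was higher in members (1.29), but the difference was -0.17 without the defensin-rich barcodes. By list, 2 transcription factors were higher and 2 lower, 1 receptor was higher and 3 were lower, 0 granin and processing genes were higher and 2 lower, and 0 genes of the 7 lists of other cells were called; without adjustment, 1057 of all 9963 genes had a p under 0.05. The calls of *Isl1*, *Bambi*, *Qpct* and *Vgf* were lost without WT, those of *Etv1* and *Neurod1* without *LApcL*, those of *Rfx6* and *Cnr1* without *LApc* and without *LApcL*, and those of *Scn3a* and *Slc15a1* without any 1 of the libraries. *Gpbar1* and *Ppy* did not pass the filter without WT or without *LApc*. The calls of *Isl1*, *Cnr1*, *Etv1*, *Gpbar1*, *Ppy*, *Ret*, *Scn3a*, *Slc15a1* and *Gm15315* were likewise not made by DESeq2.

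The members led by different hormones were then set against each other, each group against the mean of the other 3, on 12 sums of group and library with the same test. The hormones themselves fixed the split and were left out. *Cck*-led members had 63 genes higher (1.1% of 5736 tested) and 10 lower (0.174%), *Gip*-led members 85 higher (1.48%) and 26 lower (0.453%), *Ghrl*-led members 28 higher (0.488%) and 25 lower (0.436%), and *Sst*-led members 55 higher (0.959%) and 22 lower (0.384%).

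*Cck*-led members were marked by *Etv1*, at 102 CPM in WT, 241 in *LApc* and 189 in *LApcL* against 27.6, 53.0 and 36.2 CPM in the mean of the other groups (log2 difference 2.53 ± 0.23 (SE), adjusted p = 9.57e-10), and by *Ffar1*, at 82.8, 146 and 84.4 CPM against 12.4, 55.7 and 15.5 CPM (log2 difference 3.8 ± 0.56 (SE), adjusted p = 0.00464), a call lost without WT. *Pzp*, an alpha-2-macroglobulin family gene, stood at 45.4, 202 and 63.9 CPM against 0, 12.5 and 1.64 CPM (log2 difference 5.83 ± 0.44 (SE), adjusted p = 1.80e-11). In each of these genes every library had its higher value in *Cck*-led members. *Cyp2j5* (6.34), *Onecut3* (3.71), *Agr3* (3.09, lost without WT), *Qpct* (2.79), *Gm11992* (2.64), *Scg2* (2.30) and *Neurod1* (1.27) were higher as well. Without WT, without *LApc* and without *LApcL*, 27, 29 and 55 genes were called higher and 6, 8 and 18 lower; DESeq2 called 27 higher. The *Scg2* call was lost without WT and without *LApcL* and the *Neurod1* call without WT and without *LApc*. *Qpct* did not pass the filter without *LApc*, and DESeq2 did not call *Cyp2j5*.

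*Gip*-led members were marked by *Pkib*, an inhibitor of protein kinase A, at 103 CPM in WT, 146 in *LApc* and 119 in *LApcL* against 2.68, 0.687 and 1.70 CPM (log2 difference 6.56 ± 0.39 (SE), adjusted p = 5.09e-14), and by *Sphkap*, an anchoring protein of the same kinase (5.10). *Cnr1* stood at 37.6, 123 and 82.5 CPM against 1.51, 7.72 and 1.64 CPM (log2 difference 4.64 ± 0.40 (SE), adjusted p = 4.02e-10), and *Fabp5* at 2579.8, 3979.6 and 3262 CPM against 366, 432 and 257 CPM (log2 difference 3.8, lost without WT and without *LApc*). *Pkib* and *Cnr1* were higher in the *Gip*-led sum of each library. *Gatm* (4.15), the lipoprotein receptor gene *Scarb1* (2.63), *Gm11992* (2.15), *Rcn1* (2.03), *Pam* (0.84), *Cplx2* (0.70) and *Pax6* (0.90) were higher, while *Mboat4* (-4.61) and *Ffar2* (-3.11) were lower. The Paneth gene *Mptx2* was called higher (2.47). Without WT, without *LApc* and without *LApcL*, 44, 55 and 74 genes were called higher and 8, 10 and 34 lower; DESeq2 called 50 higher. The calls of *Pam* and *Pax6* were lost without WT and without *LApcL*, that of *Mptx2* without WT and without *LApc*, that of *Ffar2* without *LApc*, and that of *Cplx2* without any 1 of the libraries. DESeq2 called none of *Pam*, *Pax6*, *Mptx2* and *Cplx2*.

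*Ghrl*-led members held the ghrelin acylase gene *Mboat4* at 45.4 CPM in WT, 121 in *LApc* and 4.93 in *LApcL*, against 11, 30.7 and 16.3 CPM in the other groups (log2 difference 2.59 ± 0.54 (SE), adjusted p = 0.00958). The level was higher in *Ghrl*-led members of WT and *LApc* and lower in those of *LApcL*. The *LApcL* value rests on very few UMIs, since 4 UMIs in that sum come to 19.7 CPM. Of the 18 *Ghrl*-led members of *LApcL*, 4 had a set sum of 100 or more. The lower level in *LApcL* is therefore uncertain. *Gal*, which encodes the neuropeptide galanin, stood at 45.4, 60.5 and 19.7 CPM against 1.51, 0 and 0.706 CPM (log2 difference 5.77). *Ooep* (6.12), *Fxyd2* (5.57), *Rab3c* (2.78), *Plb1* (2.75), the acyl-CoA synthetase gene *Acsl1* (2.44), *Gm15292* (1.68), *Nkd1* (1.51) and *Tubb2b* (1.26) were higher, and *Runx1t1* (-2.08) was lower. All of these higher calls, *Mboat4* and *Gal* included, rested on the WT library: without it no gene was called higher, and *Gal*, *Ooep*, *Fxyd2*, *Rab3c*, *Plb1* and *Gm15292* did not pass the filter. Without *LApc* the calls of *Mboat4*, *Rab3c*, *Plb1*, *Gm15292* and *Tubb2b* were lost, and *Gal*, *Ooep* and *Fxyd2* did not pass the filter. The calls of *Nkd1* and *Tubb2b* were also lost without *LApcL*, and the *Runx1t1* call was lost without any 1 of the libraries. DESeq2 did not call *Ooep*, *Gm15292*, *Nkd1*, *Tubb2b* or *Runx1t1*. Without WT, without *LApc* and without *LApcL*, 0, 16 and 53 genes were called higher and 5, 29 and 17 lower; at an unadjusted p under 0.05 edgeR had 372 genes without WT.

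*Sst*-led members were set apart by *Hhex*, the homeobox factor of delta cells, at 228 CPM in WT, 551 in *LApc* and 280.4 in *LApcL* against 1.39, 2.44 and 12.5 CPM (log2 difference 7.12 ± 0.46 (SE), adjusted p = 1.51e-06), and by *Iapp*, at 4651, 6488 and 3186 CPM against 38.6, 9.67 and 47.5 CPM (log2 difference 8.35 ± 0.68 (SE), adjusted p = 0.00242), a call lost without WT and without *LApcL*. Both genes were higher in the *Sst*-led sum of each library, without overlap. The acid-sensing channel gene *Asic5* (8.25, lost without WT), the potassium channel gene *Kcnk2* (6.67), *Arg1* (6.23), *Meg3* (5.57), *Gm21149* (7.61), *Gm14964* (4.25), *Runx1t1* (1.89), *Slc15a1* (1.30) and *Scg3* (1.10) were higher. *Etv1* was lower, at 13, 0 and 0 CPM against 57.3, 133 and 99.2 CPM (log2 difference -3.13 ± 0.51 (SE), adjusted p = 0.000198), and *Pam* (-1.28) and the Paneth gene *Mptx2* (-4.69) were lower as well. *Sct* was at 1459, 6942 and 765 CPM against 11531, 17479.7 and 10483 CPM, a log2 difference of -2.17 ± 0.53 (SE) that did not pass (adjusted p = 0.206). Without WT, without *LApc* and without *LApcL*, 36, 33 and 37 genes were called higher and 12, 18 and 33 lower. The calls of *Pam* and *Mptx2* were lost without WT, those of *Mptx2*, *Scg3* and *Gm14964* without *LApc*, and that of *Slc15a1* without any 1 of the libraries. *Gm21149* did not pass the filter without *LApc* or without *LApcL*, and DESeq2 called neither it nor *Slc15a1*.

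**Figure D4:**
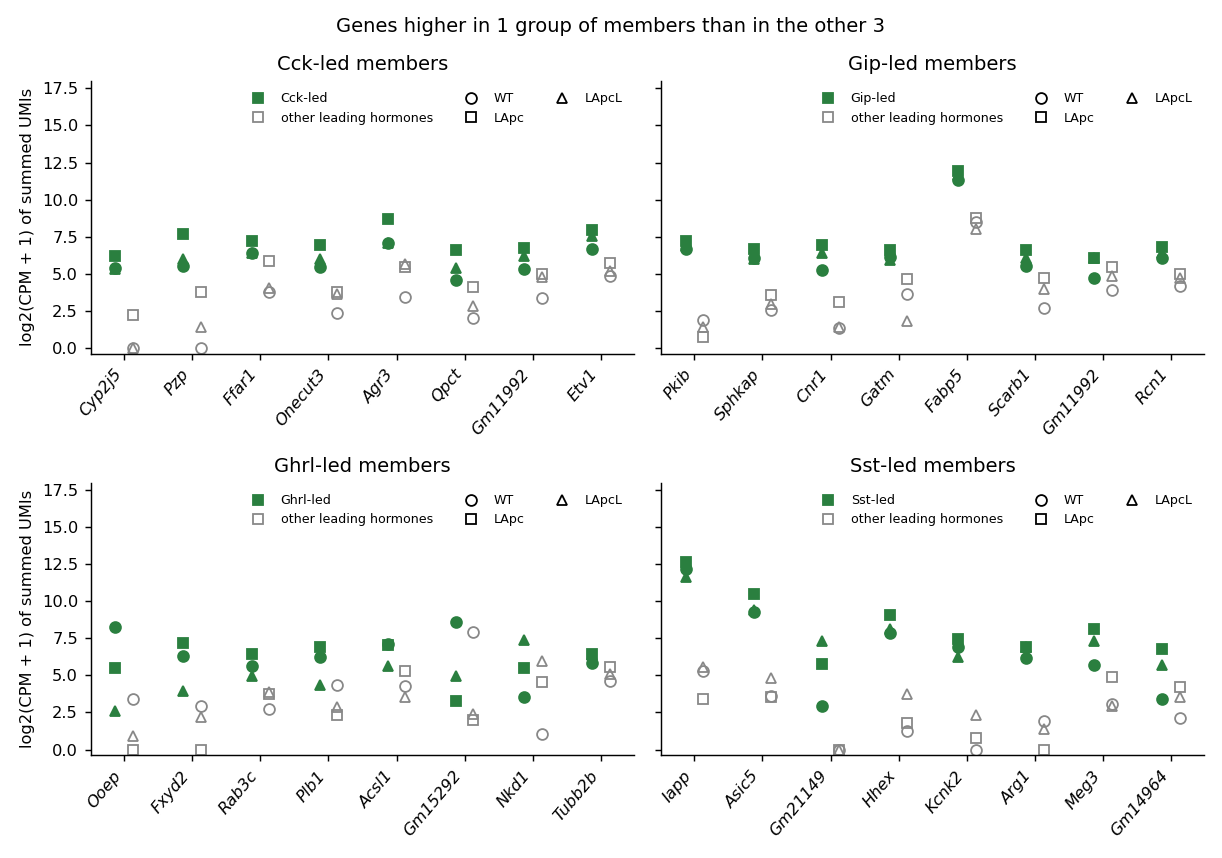
Named genes higher in members led by 1 hormone (green) than in the mean of the other 3 groups (grey, open), as log2(CPM + 1) of summed UMIs; circles are WT, squares *LApc* and triangles *LApcL*. *Hhex* and *Iapp* in *Sst*-led, *Pkib* in *Gip*-led and *Pzp* in *Cck*-led members stood above the other groups in each library.

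Between genotypes there was 1 library each, so no test was possible and the values below compare these libraries. The targeted genes are given first. *Lef1* had 0, 4 and 4 UMIs in the members of WT, *LApc* and *LApcL*, or 0, 2.85 and 3.05 CPM, which is too few to compare. *Apc* stood at 18.5, 19.2 and 22.9 CPM in members and at 16.6, 24.2 and 32.6 CPM in the barcodes outside the gate, so it was not lower in the libraries labelled *Apc*-deleted. Counts of a 3′ method do not show whether a deleted exon is missing, and this level does not check the labels.

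Members made up 2.01% (1.76 to 2.29) of the kept barcodes of WT, 2.44% (2.16 to 2.75) of *LApc* and 0.937% (0.797 to 1.09) of *LApcL*. The log2 ratio of the shares was 0.28 (0.02 to 0.54) for *LApc* over WT, -1.10 (-1.40 to -0.80) for *LApcL* over WT and -1.38 (-1.67 to -1.09) for *LApcL* over *LApc*. When the rule was applied after thinning each barcode to 3000 UMIs, with 47 members of *LApc* and 6 of *LApcL* left out as too shallow, the shares were 1.00%, 1.58% and 0.618%. Of the barcodes that passed the *Chga* and *Chgb* gate, members were 43.2% (38.9 to 47.5), 39.4% (35.7 to 43.2) and 30.4% (26.5 to 34.5), and *Tph1* and *Tac1* cells were 31.5%, 45.6% and 42.8%. This denominator includes barcodes without any set sum of 2 or more, which belong to no class. They were 28 of 530 in WT, 29 of 673 in *LApc* and 80 of 523 in *LApcL*. Their part in the lower share of *LApcL* was not tested. The share of members was lowest in *LApcL* on either denominator, and its interval lay apart from those of WT and *LApc*. For the share of the gate this depended on the setting: the *LApcL* interval met that of WT after thinning (21.5 to 30.2 against 28.8 to 39.2), that of *LApc* with 10 or more *Chga* and *Chgb* UMIs (22 to 30.5 against 27.5 to 35.5), and those of both without the highest doublet scores (29.5 to 39.3 against 39.0 to 48.7 in WT and 37.0 to 45.7 in *LApc*). After thinning, the shares of the gate were 33.8%, 42.6% and 25.7%, so that *LApc* and not WT had the highest value. Depth differed, with medians of 9990, 6394 and 10559 UMIs in barcodes outside the gate.

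All 4 hormone transcripts were higher in members of *LApc* than of WT. *Gip* stood at 42402 CPM in WT, 106227 in *LApc* and 47549.7 in *LApcL* over all members, *Cck* at 11912, 32809.9 and 10816 CPM, *Ghrl* at 11103, 17279.8 and 5579 CPM and *Sst* at 11738, 14763 and 8767 CPM. The log2 ratios of *LApc* over WT were 1.46 (1.44 to 1.48) for *Cck*, 1.32 (1.31 to 1.34) for *Gip*, 0.64 (0.61 to 0.66) for *Ghrl* and 0.33 (0.31 to 0.36) for *Sst*. In barcodes outside the gate the same ratios were 0.94, 1.10, 0.04 and 0.60. For *LApcL* over WT the members had -0.14 (-0.17 to -0.11) for *Cck*, 0.17 (0.15 to 0.18) for *Gip*, -0.99 (-1.03 to -0.96) for *Ghrl* and -0.42 (-0.45 to -0.39) for *Sst*, against -1.34, -1.37, -1.79 and -1.47 outside the gate. For *LApcL* over *LApc* all 4 were lower in members, with -1.60, -1.16, -1.63 and -0.75. The sign depended on the setting for 3 of these ratios: in members with a set sum of 100 or more *Sst* was -0.12 for *LApc* over WT, *Gip* was -0.18 with TMM scaling for *LApcL* over WT, and *Cck* was 0.02 there when scaled without ribosomal protein, mitochondrial and rule genes. These 4 genes are part of the rule, and the ratios describe the members it chose.

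A gene was counted as different between libraries when it was past 2-fold, its interval excluded 0 on the log2 scale and the higher library had 50 CPM or more. For *LApc* over WT, 114 genes were higher (4.4% of 2591) and 57 lower (2.2%), with a median log2 ratio of 0.06 over all genes. For *LApcL* over WT, 163 were higher (5.9% of 2762) and 107 lower (3.87%), with a median of 0.33. For *LApcL* over *LApc*, 119 were higher (4.12% of 2885) and 111 lower (3.85%), with a median of 0.23. The split moved with the scaling: with TMM factors it was 61 and 78 for *LApc* over WT, 48 and 191 for *LApcL* over WT and 67 and 129 for *LApcL* over *LApc*, with medians of -0.21, -0.06 and 0.12. Scaled to a total without ribosomal protein, mitochondrial and rule genes it was 363 and 51, 445 and 119 and 168 and 198. Without the defensin-rich barcodes it was 73 and 59, 93 and 135 and 120 and 116.

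Several genes of hormone packing were higher in *LApc* than in WT. Of the 12 granin and processing genes, 8 reached 50 CPM in either library, of which 5 were higher past 2-fold and 0 lower, with a median log2 ratio of 1.19. These 8 reached 50 CPM in WT as well. *Scg2* stood at 453 CPM in WT, 1235 in *LApc* and 563 in *LApcL*, which gave a log2 ratio of 1.45 (1.34 to 1.55) between *LApc* and WT. *Scg5*, a chaperone of the convertase encoded by *Pcsk2*, stood at 99.2 CPM in WT, 269 in *LApc* and 316 in *LApcL*, with 1.44 (1.21 to 1.67) for *LApc* and 1.67 (1.45 to 1.90) for *LApcL* over WT. *Pcsk1n*, an inhibitor of the convertase encoded by *Pcsk1*, stood at 173 CPM in WT, 434 in *LApc* and 402 in *LApcL*, with 1.33 and 1.22. *Scg5* and *Pcsk1n* were thus higher than in WT in both mutant libraries, whereas *Scg2* and *Cpe* (1.05 and 0.12) passed 2-fold over WT in *LApc* but not in *LApcL*. *Scg2* was also lower in *LApcL* than in *LApc* (-1.13). For *LApcL* over WT, the ratios of *Scg5* and *Pcsk1n* were not 2-fold further than in barcodes outside the gate. The part of free RNA in these ratios was not tested. *Sct* stood at 11755 CPM in WT, 18689.5 in *LApc* and 9904 in *LApcL*, with ratios of 0.67 and -0.25 that did not pass 2-fold. *Pyy* stood at 666 CPM in WT, 2088 in *LApc* and 1581 in *LApcL*, and *Nts* at 701 CPM in WT, 612 in *LApc* and 141 in *LApcL*, which gives -2.31 for *Nts* in *LApcL* over WT. *Pyy* and *Nts* are genes of the rule, which caps their level in a member below its hormone sum. Their values thus describe the members it chose. With TMM factors the granin and processing list had 4 of 8 higher (median 0.94), without defensin-rich barcodes 4 of 8 (0.95) and in members with a set sum of 100 or more 2 of 8 (0.75).

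Of 32 receptor genes, 5 reached 50 CPM in *LApc* or *LApcL*, and 5 of these were lower in *LApcL*, with a median log2 ratio of -1.08. Their level in *LApc* is what brought them past the minimum, and with the same mix of leading hormones in both libraries, or with a set sum of 100 or more, 1 of 5 passed 2-fold. *Ffar1* stood at 40.6 CPM in WT, 96.8 in *LApc* and 42.0 in *LApcL*, with -1.2 (-1.68 to -0.74) for *LApcL* over *LApc* and 1.25 (0.88 to 1.63) for *LApc* over WT. *Cnr1* stood at 17.7 CPM in WT, 64.8 in *LApc* and 30.5 in *LApcL*, with -1.08 (-1.66 to -0.53) and 1.87 (1.35 to 2.40). Both were thus highest in *LApc*, and neither reached 50 CPM in WT. *Sox4*, a factor of early endocrine progenitors, had another order: it stood at 104 CPM in WT, 130.2 in *LApc* and 249 in *LApcL* and was highest in *LApcL*, with 1.26 (1.03 to 1.5) over WT. That *Sox4* ratio was not 2-fold further than in barcodes outside the gate, and the part of free RNA in it was not tested. Of the 8 granin and processing genes with enough counts, 1 was lower in *LApcL* than in *LApc* (median -0.85).

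**Figure D5:**
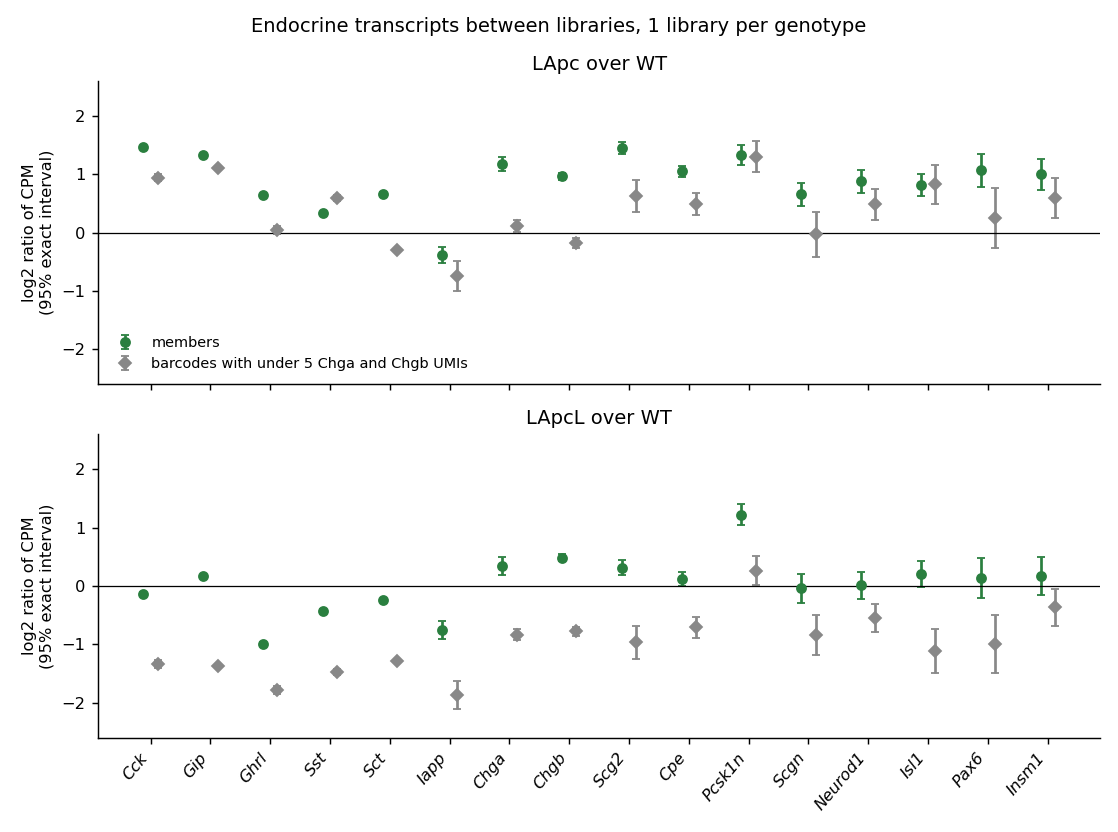
Log2 ratio of CPM in members (green circles) and in barcodes with under 5 *Chga* and *Chgb* UMIs (grey diamonds) for *LApc* over WT and *LApcL* over WT, with exact 95% intervals of the counting error; each genotype had 1 library. The 4 hormones and the granule genes shown were above 0 in members of *LApc*, while for *LApcL* over WT *Cck*, *Ghrl* and *Sst* were below 0.

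Genes listed as adenoma markers were also counted in members; the study named several of them from these libraries, so they are not independent evidence of a direction. The 8 adenoma markers summed to 26.8 CPM in WT, 145 in *LApc* and 553 in *LApcL* in members, against 8.70, 265 and 699 CPM in barcodes outside the gate and 5.58, 47.1 and 185 CPM in enterocyte barcodes. *Sox17*, an SRY-box transcription factor, had 0, 12 and 201 UMIs in members, or 0, 8.54 and 153 CPM, which places *LApcL* at least 141-fold above WT against a floor of 3 counts over the WT members. Outside the gate it stood at 0.0599, 33.6 and 233 CPM and in enterocyte barcodes at 0, 5.60 and 57.4 CPM. In *LApcL* it was found in 22.2% of members after thinning, in 11.7% of enterocyte barcodes and in 37.4% of the barcodes outside the gate. *Notum*, a secreted Wnt antagonist, was at least 56.9-fold higher in members of *LApcL* than of WT, *Myl9* at least 197-fold, *Wfdc18* at least 47.8-fold and *Ly6d* at least 47.8-fold, and *Ly6d* was at least 49.1-fold higher in *LApc*. *Prox1*, which the transcription factor and adenoma lists share, stood at 21.4 CPM in WT, 56.9 in *LApc* and 51.2 in *LApcL*, with 1.41 and 1.26 over WT against 2.94 and 2.66 outside the gate. These genes also had higher levels outside the gate in the same libraries, and the part of free RNA in their level in members was not tested.

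Genes of the members whose ratio went at least 2-fold further than outside the gate were chosen by the rule for named genes. For *LApc* over WT those higher were *Ly6d*, *BC048546* (2.22), *Tmem27* (2.1), *Meg3* (1.96), *Agr3* (1.71), *Gm11992* (1.57), *Cryba2* (1.47) and *Ttr* (1.45), the values being log2 ratios. *Ly6d* met the rule only because WT members had 0 UMIs of it, which leaves its ratio without an upper bound. It stood at 53.4 CPM in *LApc* members, and outside the gate at 99.8 CPM in *LApc* against 0.0824 in WT. A larger ratio in members than outside the gate is therefore not shown for *Ly6d*. *Ttr* encodes transthyretin and *Cryba2* a crystallin found in endocrine cells. The 8 lower were defensin family genes of Paneth cells, *Gm21002* (-7.49), *Gm15308* (-7.42), *Defa20* (-6.71), *Defa22* (-6.41), *Defa21* (-6.33), *Gm15293* (-5.79), *Gm15315* (-5.78) and *Gm7861* (-5.75). For *LApcL* over WT those lower were likewise defensin genes, *Defa21* (-5.94), *Defa22* (-5.91), *Gm15308* (-5.73), *Gm21002* (-5.49), *Gm7861* (-5.48), *Gm15292* (-5.42) and *Defa5* (-5.36) and *Gm15299* (3 UMIs in *LApcL*, -5.59 (-7.88 to -4.03)). Without the defensin-rich barcodes *Gm15299* turned to 2.39, and with members chosen after thinning to 1.63. Without those barcodes *Gm15308* was at -3.23 and *Gm15293* at -0.96 for *LApc* over WT, the ends of the range of the 8 genes, and *Gm7861* at -1.85 and *Defa5* at -0.64 for the other 7 genes of *LApcL* over WT. Outside the gate, with all barcodes kept, *Gm15308* was at -3.29 and *Gm15293* at -2.66 for *LApc* over WT. For *LApcL* over WT, *Gm7861* was at -3.49 and *Defa5* at -3.18 there. A larger drop in members than outside the gate thus did not remain for these named genes. The near-identical defensin family genes can share reads, so the values of single genes are uncertain, and 17.1% of the WT members' UMIs came from the 14 defensin-rich barcodes. For *LApcL* over *LApc* those higher were *Sox17* (4.17, interval 3.33 to 5.14), *Myl9* (3.43), *Rgcc* (3.28), *Ifitm1* (2.74), *Igfbp4* (2.68), *Ifitm3* (2.44), *Notum* (2.12) and *Lyz1* (2.00), and those lower were *Reg4* (-1.99), *Tmem27* (-1.93), *Afp* (-1.91), *Meg3* (-1.55), *Oxr1* (-1.45), *1500011B03Rik* (-1.28), *C1qtnf4* (-1.26) and *Gatm* (-1.25). *Tmem27* stood at 15.6 CPM in WT, 66.9 in *LApc* and 17.6 in *LApcL*, and the non-coding RNA *Meg3* at 15.6 CPM in WT, 60.5 in *LApc* and 20.6 in *LApcL*. Both were highest in *LApc*, the only library that brought them past the minimum of 50 CPM. The same *LApc* value enters both of their ratios, so this order follows in part from how they were chosen.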

How the data were processed

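Barcode-level UMI counts of 3 droplet libraries were analysed, 1 mouse each of WT, *LApc* and *LApcL*. Per the methods and the submitters' processing notes, the authors sorted EpCAM-positive epithelium, used a 10x 3′ kit and quantified the reads with Cell Ranger 2.1.1 on mm10; which kit version each library had is not given in the sources used here. The deposited values were whole UMI counts of 27998 genes without normalization, and no cell annotation was used. The libraries held 11453, 13214 and 17388 barcodes and 140181087, 79696291 and 191509615 UMIs.
The members and gene lists were chosen with earlier results of these data known. UMIs were summed per class and library and given as CPM with exact Poisson intervals; ratios carry exact conditional binomial intervals (normal ones where the mix of leading hormones was equalised) and shares exact Clopper-Pearson intervals, all at 95%, and a count of 0 was bounded with 3 counts. Class and group differences were tested with edgeR 4.0.16 (quasi-likelihood, TMM, filterByExpr, library as block; R 4.3.3) and called at a Benjamini-Hochberg adjusted p under 0.05. Named genes were the 12 highest and 12 lowest called log2 differences of a class comparison (8 highest for a hormone group) with the same sign in the 3 libraries and 50 CPM or more on the higher side, the 8 highest and 8 lowest genotype ratios at least 2-fold further than in barcodes with under 5 *Chga* and *Chgb* UMIs (outside the gate), and any gene of the lists. On simulated counts the class fit recovered 84% of genes changed by 2 on the log2 scale and 5% of those changed by 1, with 6 false calls of 95 (10207 genes), and the hormone group fit 90.7% and 27.8%, with 6 false of 121 (5896 genes). The simulated spread was larger than that of the data, where the biological coefficient of variation was 0.104 and 0.173 in these 2 fits. These rates therefore do not give the power of the fits on the data. Scrublet (scanpy 1.11.5) marked 1049, 0 and 0 barcodes, so doublets were kept and an alternative removed the highest scores at the expected rates of 9.16%, 10.57% and 13.91%, including 45, 49 and 28 members. Other alternatives were DESeq2 1.42.0, other scalings, filters, rule thresholds and leaving out each library; 2 of them, without defensin-rich barcodes and with a set sum of 100 or more, were added after the data had been seen. Single values of a few genes of the lists are not reported here.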

Additional observations from a re-analysis of the deposited data

Results flagged for a closer look

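*Zg16*, a goblet cell gene, went opposite ways between members and *Gcg*, *Pyy* and *Nts* cells in 2 libraries, which is what brought it here. It stood at 6884 CPM in WT, 7385 in *LApc* and 800.1 in *LApcL* in members and at 17586, 2026 and 522 CPM in the other class. The log2 ratio was 1.87 (1.74 to 1.99) in *LApc* and -1.35 (-1.38 to -1.32) in WT. The difference between the libraries was not tested. The 8 goblet markers summed to 21471, 17951 and 3014 CPM in members and 43584, 10140.0 and 2242 CPM in *Gcg*, *Pyy* and *Nts* cells of WT, *LApc* and *LApcL*, and their part in the result was not tested.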

How the results depend on the processing

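The limits are these. Each genotype was 1 mouse and 1 library, members were few, and the *LApc* library was the shallowest, with 4552 UMIs per member at the median. Over all alternatives, 197 recomputed values of the main results and 862 of named genes kept their direction and their side of the threshold, or stayed within their interval or within 1.5 times the count. Another 89 of the main results moved past those bounds, and they are given below. Calls of named genes were lost in 127 recomputed values, 71 others moved beyond their interval, and 3 turned. The causes of the changes below were not tested.

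The share of members was 1.42%, 1.58% and 0.672% of WT, *LApc* and *LApcL* with 10 or more *Chga* and *Chgb* UMIs, 1.00%, 1.58% and 0.618% after thinning to 3000 UMIs, 1.33%, 1.95% and 0.636% with a set sum of 100 or more, and 0.778% of *LApcL* with a set sum of 5 or more. Its log2 ratio was 0.66 after thinning and 0.56 with a set sum of 100 or more for *LApc* over WT, and -0.70 after thinning for *LApcL* over WT. After thinning *Gip* led 50% and *Ghrl* 6.14% of WT members and *Ghrl* 5.77% of *LApcL* members; with 10 or more *Chga* and *Chgb* UMIs *Ghrl* led 4.07% of *LApc* and *Sst* 5.26% of *LApcL* members, and with a set sum of 100 or more *Ghrl* led 3.70% of *LApcL* members.

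For *LApc* over WT, genes higher in members were 61 with TMM scaling, 363 with a total without ribosomal protein, mitochondrial and rule genes, 360 at 20 CPM or more, 183 without the highest doublet scores and 73 without defensin-rich barcodes, and genes lower were 100 with members chosen after thinning. For *LApcL* over WT, genes higher were 48, 445 and 439 under the first 3 of these, 93 without defensin-rich barcodes and 101 with a set sum of 100 or more, and genes lower were 191 with TMM scaling and 196 at 20 CPM or more. For *LApcL* over *LApc*, genes higher were 67 with TMM scaling, 310 at 20 CPM or more and 202 with members chosen after thinning, and genes lower were 198 with the reduced total and 299 at 20 CPM or more. *Gm15299* turned to 1.63 with members chosen after thinning and to 2.39 without defensin-rich barcodes for *LApcL* over WT, and *Gm15315* to -0.17 without defensin-rich barcodes for members against *Gcg*, *Pyy* and *Nts* cells.

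No paired analysis was possible because each genotype had 1 library, so the groups share a single replicate number. Within libraries, the fits without the library block (no replicate block) called 44 genes higher and 11 lower for members against *Tph1* and *Tac1* cells, 1 and 1 against *Gcg*, *Pyy* and *Nts* cells, 12 and 2 for *Cck*-led, 15 and 2 *Gip*-led, 0 and 2 *Ghrl*-led, 15 and 2 *Sst*-led members; of the *Ghrl*-led fit without the block, edgeR had 302 genes at an unadjusted p under 0.05, against 543 with it. DESeq2 called 188 higher and 141 lower against *Tph1* and *Tac1* cells, 7 and 59 against *Gcg*, *Pyy* and *Nts* cells, 27 higher for *Cck*-led, 50 higher for *Gip*-led and 15 lower for *Ghrl*-led members. Without a filter on low counts 117 were higher against *Gcg*, *Pyy* and *Nts* cells, 131 higher and 22 lower for *Cck*-led, 215 and 40 for *Gip*-led, 49 and 54 for *Ghrl*-led, and 64 lower for *Sst*-led members. Without the highest doublet scores 58 were lower against *Gcg*, *Pyy* and *Nts* cells, 13 higher for *Ghrl*-led and 35 lower for *Sst*-led members. Leaving out each library in turn gave 215 to 261 genes higher and 146 to 273 lower against *Tph1* and *Tac1* cells, 23 to 30 and 56 to 72 against *Gcg*, *Pyy* and *Nts* cells, 27 to 55 and 6 to 18 for *Cck*-led, 44 to 74 and 8 to 34 for *Gip*-led, 0 to 53 and 5 to 29 for *Ghrl*-led and 33 to 37 and 12 to 33 for *Sst*-led members; for the 0 of *Ghrl*-led members, without WT, edgeR had 372 genes at an unadjusted p under 0.05, and DESeq2 on all 3 libraries called 19 higher.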

Other observations

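Barcodes left out by the filters were examined with the same hormone rule. It was met by 0 of 62 left-out barcodes of WT, which allows a share of up to 5.78%, by 8 of 2345 of *LApc* (0.341%, exact interval 0.147 to 0.671), and by 0 of 413 of *LApcL*, which allows up to 0.889%. All 8 lay above the limit on mitochondrial UMIs, with a median of 32.1% and 2624.5 UMIs.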
